A study of Homo sapiens with 4 samples.

Results

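The mRNAs described here code for the factors that first meet a new protein as it leaves the ribosome: the nascent polypeptide-associated complex (NAC) and the signal recognition particle (SRP). The 9 genes were chosen by symbol (NACA, BTF3, BTF3L4, SRP9, SRP14, SRP19, SRP54, SRP68 and SRP72) with a minimum of 10 counts over all libraries. All 9 of the 19948 genes listed were found, and all 9 reached the 30 counts needed for the comparisons between pools. They were measured in HEK293T cells, a human embryonic kidney line, given cycloheximide at 100 ug/mL for 10 min, which holds ribosomes on their mRNAs. The lysate was spun through sucrose from 10% to 50%. The gradient was divided into 4 pools, free (no ribosome), monosome, light polysome and heavy polysome, and the capped, polyadenylated RNA of each was sequenced on nanopores with no amplification. No genetic change or inhibitor beyond cycloheximide is named in the labels for any pool. The wider study concerns how mTOR and LARP1 act on TOP mRNAs, whose 5′ ends begin with a run of pyrimidines and which code mainly for ribosomal proteins.

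NAC is a pair of an alpha subunit, NACA, and a beta subunit, BTF3, that sits at the exit of the ribosomal tunnel and keeps SRP from ribosomes whose chains carry no signal sequence. SRP reads the signal sequence of secreted and membrane proteins, slows elongation and brings the ribosome to its receptor on the endoplasmic reticulum. It consists of an RNA and 6 proteins. SRP9 and SRP14 form the pair that slows elongation, SRP54 is the GTPase that binds the signal sequence, SRP19 helps to place SRP54 on the RNA, and SRP68 and SRP72 bind each other and the RNA. BTF3L4 is a second beta subunit, with a coding sequence 73.4% identical to that of BTF3 over 470 aligned bases.

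With 1 library per pool there are no replicates, and differences are given without p-values. The libraries held 355509 counts (free), 1329334 (monosome), 1499401 (light polysome) and 1564531 (heavy polysome), and with each library scaled to a total of 1000000 (CPM) 1 read was worth 2.81 CPM in the free library against 0.639 to 0.752 CPM in the others. Intervals cover 95% of counting error only. Each value is a share of its library, so more of an mRNA in a pool and less of other mRNAs there cannot be told apart. Of 6 genes that HEK293 cells are known to express, 5 had 10 or more counts, and their summed level ranged over the pools from 59.1 to 690 CPM. Of 6 genes of other cell types, 4 had no count and none reached 10, with a summed level of 0 to 11.3 CPM.

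The first bases of NACA, BTF3, BTF3L4, SRP9, SRP14 and SRP72 are shown because TOP mRNAs are defined there. For SRP19, SRP54 and SRP68 only the run lengths are given. Each line holds the 10 bases before and the 20 from the RefSeq start (GRCh38.p14), with the longest run of C and T that begins within 10 bases of the start in capitals. All 9 genes matched the RefSeq promoter table. RefSeq starts need not be the cap sites used in these cells, which the counts do not show.
NACA (chr12:56725280-56725309, minus strand): ctcgctcggTCTTTCTgccgccatcttggt
BTF3 (chr5:73498432-73498461, plus strand): cttccggCCTCCCTTTagctgccatcttgc
BTF3L4 (chr1:52056285-52056314, plus strand): cgccgccgccgccgccgtcgTCTTTCTCTg
SRP9 (chr1:225777816-225777845, plus strand): gcgaggaggcgccgccaTCTTggggctgct
SRP14 (chr15:40039162-40039191, minus strand): cgcccagcctaggccgaaCTTCCggctctc
SRP72 (chr4:56467607-56467636, plus strand): tccccgccccgcccctcgTCTCCTCCaaga
In NACA the run of 7 pyrimidines and in BTF3 the run of 9 pyrimidines spanned the start itself, and 15.8% and 7.08% of all 35116 RefSeq starts had a run as long. The runs of BTF3L4 (9 bases, as long as that of BTF3) and SRP72 (8 bases) began 11 and 9 bases into the mRNA. A run of 8 or more was found at 71.8% of the 78 starts of ribosomal protein genes and at 10.6% of all starts. For a run of 6 or more, these shares were 79.5% and 24.7%. SRP9 and SRP19 had runs of 4, and SRP14 had 5 at the start shown and 4 at its other listed start. SRP54 had a run of 7 that began 7 bases before the start, and SRP68 had runs of 4 and 11 at its 2 listed starts. Of all starts, 3.25% had a run of 11 or more.

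The alpha subunit NACA (ENSG00000196531, chromosome 12, 56712428 to 56731628) was most concentrated under single ribosomes. It had 47, 466, 269 and 128 counts from the free to the heavy polysome library, or 132 CPM (interval 97.1 to 176), 351 CPM (319 to 384), 179 CPM (159 to 202) and 81.8 CPM (68.3 to 97.3). The monosome library was the highest and the heavy polysome library the lowest, with no overlap of the intervals of those libraries. The intervals of the free and light polysome libraries overlapped, so the order of those libraries is not settled. The same order of the 4 pools was found in 199 of the 7527 genes with at least 30 counts (2.64%), and in 7 of the 75 tested ribosomal protein genes.

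A near-identical copy had more reads than NACA itself. NACA2, on chromosome 17 (61590426 to 61591202), is a single-exon copy of NACA known for expression in the testis, and it had 258, 1815, 1075 and 570 counts in the same order. The coding sequences have 645 bases each and differ at 36, an identity of 94.4%. A stretch of 147 coding bases (bases 235 to 381 of each coding sequence, build GRCh38, GENCODE release 29 transcripts) shows how little separates them, with the 9 differing bases in capitals.
NACA (chr12:56713537-56713683, minus strand): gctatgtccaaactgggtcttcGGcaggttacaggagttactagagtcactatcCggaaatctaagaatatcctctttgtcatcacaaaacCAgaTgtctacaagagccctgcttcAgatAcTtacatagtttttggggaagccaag
NACA2 (chr17:61590800-61590946, minus strand): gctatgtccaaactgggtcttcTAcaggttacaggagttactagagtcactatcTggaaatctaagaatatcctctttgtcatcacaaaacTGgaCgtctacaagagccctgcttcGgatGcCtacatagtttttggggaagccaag
From the free to the heavy polysome library, NACA took 15.4% of the reads of both symbols (Clopper-Pearson interval 11.5 to 20.0), 20.4% (18.8 to 22.1), 20.0% (17.9 to 22.3) and 18.3% (15.5 to 21.4). These 4 intervals all overlapped. NACA also has the like pseudogenes NACA3P, NACA4P and NACAP2, of 94.6%, 93.8% and 91.2% identity, and none of them is among the genes listed. Another gene of the table, AC117378.1, covers 28.2% of the exon bases of the NACA transcript used here on the same strand and had no count. How the authors' counting divided such reads is not stated in the labels, and the level of NACA is therefore uncertain. Its spread over the pools was alike with NACA2 added, at 858, 1716, 896 and 446 CPM.

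The beta subunit BTF3 (ENSG00000145741, chromosome 5, 73498408 to 73505635) was spread otherwise, with its highest levels in the heavy polysome and free libraries. It had 370, 836, 606 and 3053 counts, or 1041 CPM (937 to 1152), 629 CPM (587 to 673), 404 CPM (373 to 438) and 1951 CPM (1883 to 2022) from free to heavy polysome. No 2 of these intervals overlapped. The heavy polysome and free libraries held 48.5% and 25.9% of its summed CPM, and the light polysome library 10.0%. The order heavy polysome, free, monosome, light polysome was found in 53 of the 7527 tested genes (0.704%). Its relative BTF3L4 (ENSG00000134717, chromosome 1, 52056125 to 52090716) had 8, 61, 164 and 244 counts and more CPM in each heavier pool, at 22.5 (9.72 to 44.3), 45.9 (35.1 to 58.9), 109 (93.3 to 127) and 156 CPM (137 to 177), with the free and monosome intervals overlapping. That order was the commonest of those found among the members, in 42.7% of the tested genes. BTF3 has 8 processed pseudogenes with at least 90% identity over at least 80% of its coding sequence, and BTF3L4 has 2; none of these is listed in the count table.

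**Figure D1:**
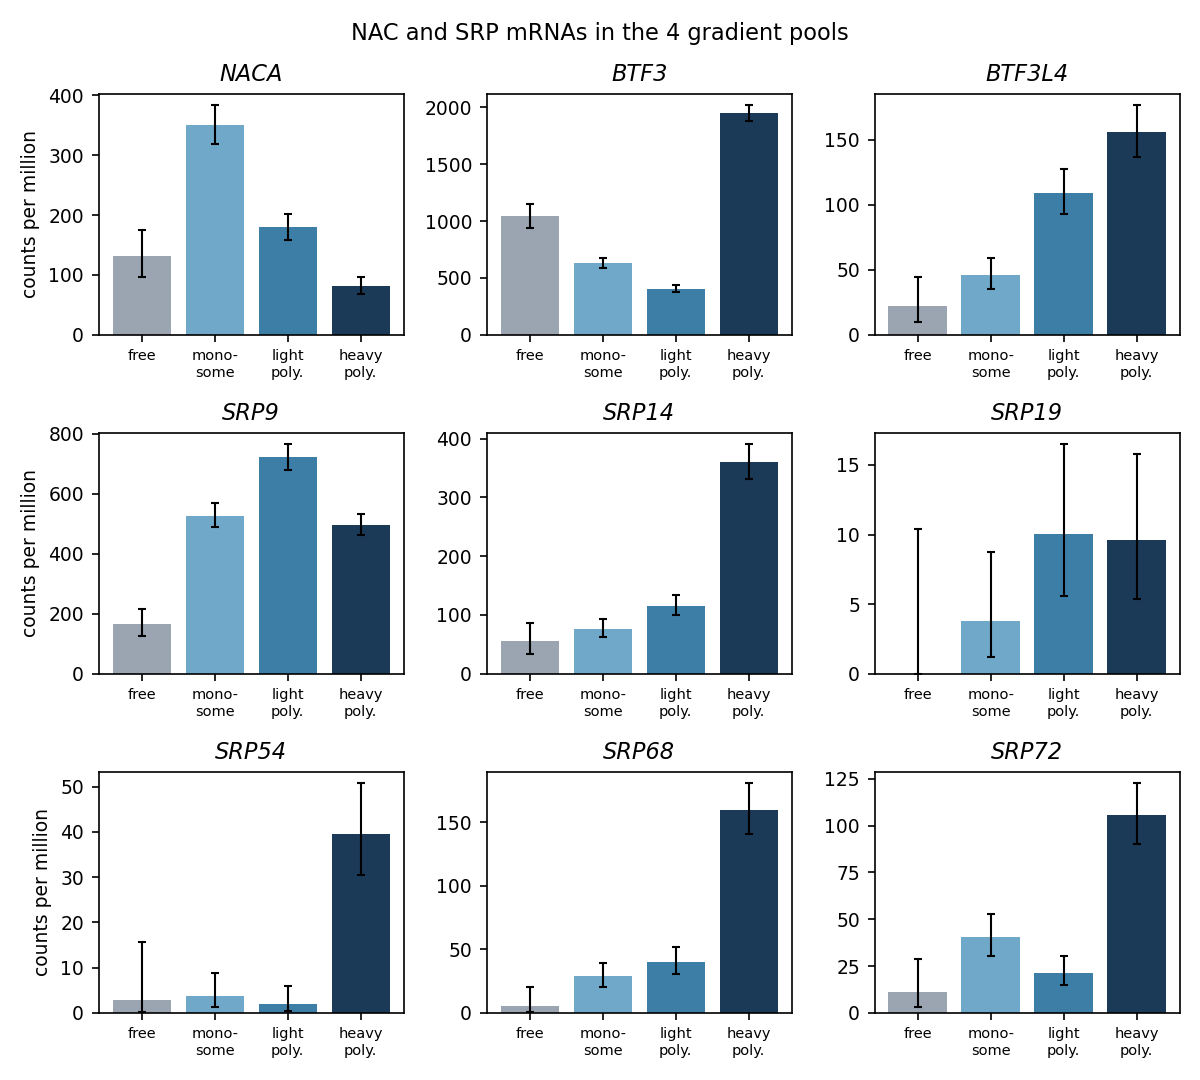
Level of each NAC and SRP mRNA (y axis, CPM, a separate linear scale for each gene) in the free, monosome, light polysome and heavy polysome libraries (1 library each; bars are levels, lines are 95% Poisson counting intervals). NACA peaked in the monosome library at 351 CPM, SRP9 in the light polysome library at 721 CPM, and BTF3 had 1041 CPM in the free and 1951 CPM in the heavy polysome library.

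The pair SRP9 and SRP14 differed in the same kind of way. SRP9 (ENSG00000143742, chromosome 1, 225777813 to 225790466) had 59, 700, 1081 and 776 counts, or 166 CPM (126 to 214), 527 CPM (488 to 567), 721 CPM (679 to 765) and 496 CPM (462 to 532) from the free to the heavy polysome library. It was highest in the light polysome library, while the intervals of the monosome and heavy polysome libraries overlapped. SRP14 (ENSG00000140319, chromosome 15, 40035739 to 40039188) had 20, 102, 174 and 563 counts, or 56.3 CPM (34.4 to 86.9), 76.7 CPM (62.6 to 93.1), 116 CPM (99.4 to 135) and 360 CPM (331 to 391). Its heavy polysome level stood above the intervals of the other 3 libraries. SRP9 has a pseudogene, SRP9P1, that is 100% identical over its 258 coding bases, and SRP14 has 3 like pseudogenes of 92.1% to 95.7% identity. None of these is listed in the table, and their part in the counts was not tested.

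SRP68, SRP72 and SRP54 each had their highest level in the heavy polysome library, as SRP14, BTF3 and BTF3L4 did. For the median gene with at least 30 counts, the share there was also higher than in the free, monosome and light polysome libraries. These ratios were 8.26-fold, 3.34-fold and 1.51-fold. SRP68 (ENSG00000167881, chromosome 17, 76038775 to 76072653) had 2, 38, 60 and 250 counts, or 5.63 CPM (0.681 to 20.3), 28.6 CPM (20.2 to 39.2), 40.0 CPM (30.5 to 51.5) and 160 CPM (141 to 181). SRP72 (ENSG00000174780, chromosome 4, 56467336 to 56503681) had 4, 54, 32 and 165 counts, or 11.3 CPM (3.07 to 28.8), 40.6 CPM (30.5 to 53.0), 21.3 CPM (14.6 to 30.1) and 105 CPM (90.0 to 123). SRP72 thus had more CPM in the monosome than in the light polysome library, with intervals that did not overlap, whereas those of SRP68 did overlap. SRP72 has the like pseudogenes SRP72P2 and SRP72P1, of 92.6% and 91.7% identity. Neither is among the genes listed, and their part in the counts was not tested. SRP54 (ENSG00000100883, chromosome 14, 34981957 to 35029567), the signal-binding GTPase, had 1, 5, 3 and 62 counts, or 2.81 CPM (0.0712 to 15.7), 3.76 CPM (1.22 to 8.78), 2.00 CPM (0.413 to 5.85) and 39.6 CPM (30.4 to 50.8). The heavy polysome library held 82.2% of its summed CPM, the highest share of the 9 members.

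SRP19 (ENSG00000153037, chromosome 5, 112861188 to 112898371) was near the limit of detection, with 0, 5, 15 and 15 counts. In the free library the 95% Poisson interval of a count of 0 reaches 10.4 CPM, and the floor of 3 counts used as a detection limit lies at 8.44 CPM. The other levels were 3.76 CPM (1.22 to 8.78), 10.0 CPM (5.60 to 16.5) and 9.59 CPM (5.37 to 15.8). A difference between its light and heavy polysome levels was not detectable at this depth. A read-through gene, AC008575.1, shares 90.7% of the SRP19 coding sequence at 100% identity and had no count, so the low counts of SRP19 are uncertain in the same way as those of NACA.

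To set the pools against each other, the log2 ratio of library shares was taken for every gene with at least 30 counts, and each member is given relative to the median of those 7527 genes. A gene is called when it lies at least 2-fold from the median gene and its counting interval leaves that gene out. The 4 comparisons share libraries and are not independent.

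Heavy polysomes were first compared with monosomes, the best counted pair for asking which mRNAs carry many ribosomes rather than 1. NACA lay below the median gene at a relative log2 ratio of -3.84 (interval -4.13 to -3.55), with 128 counts in the heavy polysome and 466 in the monosome library, and only 4.48% of the tested genes lay lower. SRP9 was also called lower, at -1.83 (-1.98 to -1.68), with 776 and 700 counts. This call is relative to the median gene, whose share was 3.34-fold higher in heavy polysomes than in monosomes. The plain shares of SRP9 were nearly equal, with a log2 ratio of -0.09. SRP54 was called higher, at 1.53 (0.36 to 3.33), from 62 and 5 counts. This direction did not hold in 1 random thinning of the libraries to the shallowest, where it was -0.22. The thinned value rests on at most 5 monosome reads. BTF3 at -0.11 (-0.22 to 0.00) and BTF3L4 at 0.02 (-0.39 to 0.45) could not be told from the median gene. Their plain shares were higher in heavy polysomes, by 1.63 and 1.76 on the log2 scale. SRP14 lay at 0.48 (0.18 to 0.81) and SRP68 at 0.73 (0.25 to 1.27), above the median gene but by less than 2-fold, while the intervals of SRP72 (-0.37) and SRP19 (-0.48) included it. Thus 1 of 9 members was called higher and 2 lower, where 21.0% of all tested genes were called higher and 27.0% lower. The members' median was -0.11, a sign that turned with TMM (0.11), DESeq2 size factors (0.11), thinned libraries (0.17) or no minimum count (0.28), against -3.12 for the 75 tested ribosomal protein genes, of which 74 were called lower.

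Heavy and light polysomes were compared to separate many from few ribosomes. The median gene had a 1.51-fold higher share in heavy than in light polysomes. SRP54 was at 3.51 (2.10 to 6.03), from 62 and 3 counts, and 99.4% of the tested genes lay below it. SRP72 at 1.70 (1.16 to 2.31), BTF3 at 1.68 (1.55 to 1.81), SRP68 at 1.40 (1.00 to 1.84) and SRP14 at 1.04 (0.79 to 1.30) were also called higher. NACA at -1.72 (-2.04 to -1.41) and SRP9 at -1.13 (-1.27 to -0.996) were called lower, SRP9 falling under 2-fold, at -0.93, with a minimum of 100 counts. BTF3L4 at -0.08 (-0.37 to 0.22) and SRP19 at -0.65 (-1.79 to 0.48) were not called. The count was therefore 5 of 9 higher and 2 lower, beside 26.0% and 28.3% of all tested genes, and the median of the members was 1.04. Of the 75 ribosomal protein genes, 1 was called higher and 49 lower, with a median of -1.44.

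**Figure D2:**
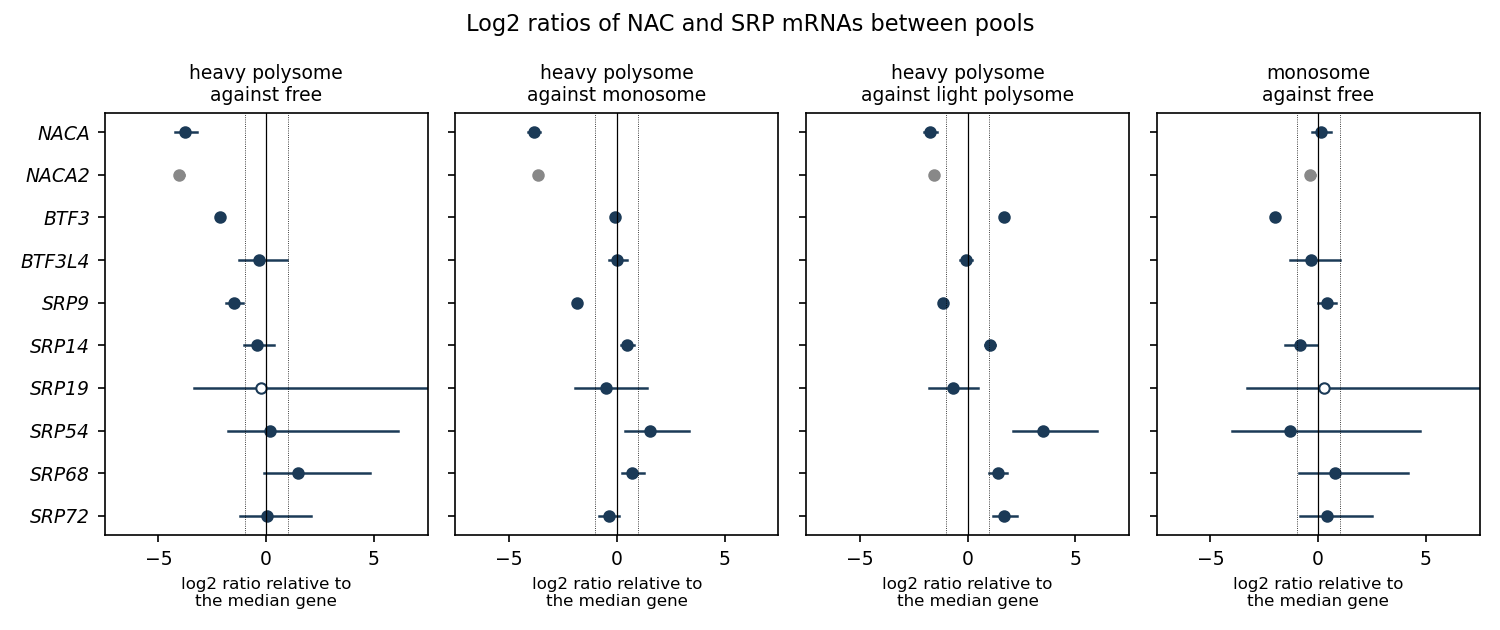
Log2 ratio of library shares relative to the median tested gene (x axis) for each NAC and SRP mRNA and for NACA2 in grey (rows), in 4 comparisons of pools. Points are ratios, lines are 95% counting intervals, dotted lines mark 2-fold, and open points have no count in one library; NACA and BTF3 lay at -1.72 and 1.68 between heavy and light polysomes.

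Heavy polysomes were compared with the free pool to ask which mRNAs lay outside ribosomes. NACA was again lowest, at -3.75 (-4.23 to -3.22), with 128 counts in the heavy polysome and 47 in the free library. BTF3 was at -2.14 (-2.29 to -1.98) and SRP9 at -1.48 (-1.85 to -1.06), both called lower relative to the median gene although their plain shares were higher in the heavy polysome library, by 0.91 and 1.57 on the log2 scale. For the median gene, heavy polysomes held an 8.26-fold higher share than the free pool. No member was called higher (6.36% of all tested genes were) and 3 were called lower (15.3%). The other 6 members had 20 or fewer counts in the free library and intervals that included the median gene, among them SRP68 at 1.46 (-0.09 to 4.84) and SRP14 at -0.40 (-1.01 to 0.35). The lower position of SRP9 was under 2-fold with a pseudocount of 1 (-0.95), with TMM scaling (-0.99) and with no minimum count (-0.35). SRP19 had no count in the free library, and its counts give no direction.

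Monosomes were compared with the free pool to see which mRNAs had taken up a single ribosome. The median gene had a 2.41-fold higher share in monosomes than in the free pool. BTF3 was the 1 member called, at -1.995 (-2.17 to -1.81), with 836 counts in the monosome and 370 in the free library, and 4.96% of the tested genes lay lower. NACA at 0.13 (-0.30 to 0.60) could not be told from the median gene, nor, at these counts, could BTF3L4, SRP19, SRP54, SRP68 or SRP72. SRP9 at 0.39 (0.01 to 0.81) and SRP14 at -0.85 (-1.52 to -0.05) lay on opposite sides of the median gene, each by less than 2-fold. Of all tested genes, 5.13% were called higher and 4.57% lower. Ribosomal protein genes had a median of -1.07, with 42 of 75 called lower.

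Partners were also compared within each library, which needs no scaling between libraries. From the free to the heavy polysome library, BTF3 made up 88.7% (Clopper-Pearson interval 85.3 to 91.6), 64.2% (61.5 to 66.8), 69.3% (66.1 to 72.3) and 96.0% (95.2 to 96.6) of the reads of BTF3 and NACA. With NACA2 reads added to NACA these shares were 54.8%, 26.8%, 31.1% and 81.4%, with the same 2 outer pools high and the same 2 middle pools low. There were 4.37 reads of BTF3 for each read of NACA or NACA2 in the heavy polysome library and 0.367 in the monosome library. SRP9 made up 74.7% (63.6 to 83.8), 87.3% (84.8 to 89.5), 86.1% (84.1 to 88.0) and 58.0% (55.3 to 60.6) of the reads of SRP9 and SRP14, in the same order, and was lowest in the heavy polysomes. SRP72 made up 58.7% (47.9 to 68.9), 34.8% (25.1 to 45.4) and 39.8% (35.0 to 44.6) of the reads of SRP72 and SRP68 from monosome to heavy polysome, and the 6 reads of the free library could not place it (22.3 to 95.7). The mRNAs of both well counted pairs were therefore divided unequally over the gradient, by more than counting error in these libraries.

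**Figure D3:**
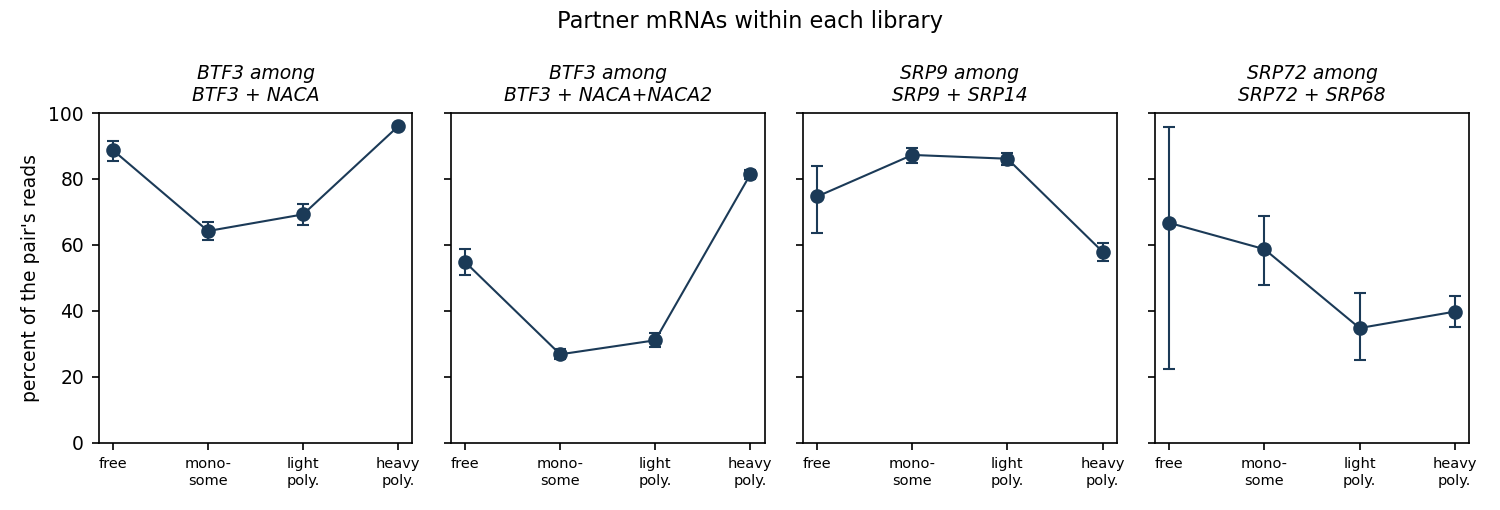
Share of the first gene among the reads of the named pair (y axis, percent) in the free, monosome, light polysome and heavy polysome libraries (1 each; lines are 95% Clopper-Pearson intervals). BTF3 was lowest in the monosome library in both panels, at 64.2% and 26.8%, and SRP9 was lowest in the heavy polysome library, at 58.0%.

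A mean position on the gradient was computed by weighting the CPM of the pools with 0, 1, 2 and 3 from free to heavy polysome. NACA was lowest at 1.28, below all but 3.28% of the tested genes and near the median of ribosomal protein genes, 1.18. A near mean need not be a like spread. The pool order of NACA was found in 7 of the 75 tested ribosomal protein genes and in 199 of all 7527 tested genes (2.64%). SRP9 and BTF3 both had a mean of 1.81, although SRP9 peaked in the light polysomes and BTF3 at both ends. BTF3L4 lay at 2.19, SRP72 at 2.24, SRP19 at 2.25 and SRP14 at 2.28, around the median of all tested genes at 2.25. SRP68 at 2.51 and SRP54 at 2.63 were highest. For comparison, the known non-ribosomal TOP mRNAs TPT1, RACK1 and NAP1L1 lay at 0.53, 1.595 and 2.12.

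Coding length goes with gradient position in these data, with a Spearman rho of 0.309 across 7468 tested genes, genes not being independent replicates. The rho across the 9 members was 0.30, but 9 genes are too few to show a trend among them. SRP9 has 258 coding bases, and the 206 tested genes below 300 coding bases had a median position of 1.55. BTF3 (486), BTF3L4 (474), SRP14 (408) and SRP19 (432) lie between 300 and 600 coding bases, where the median of 1034 genes was 1.88. BTF3L4, SRP14 and SRP19 lay above that median and BTF3 just below it. NACA, with 645 coding bases, lay well under the median of 2.30 for the 3557 genes from 600 to 1500 bases. SRP54 (1512), SRP68 (1881) and SRP72 (2013) belong to the 2108 genes from 1500 to 3000 bases, with a median of 2.34. The median did not go on rising with length: it was 2.24 for the 563 genes of 3000 or more bases, to which no member belongs.

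**Figure D4:**
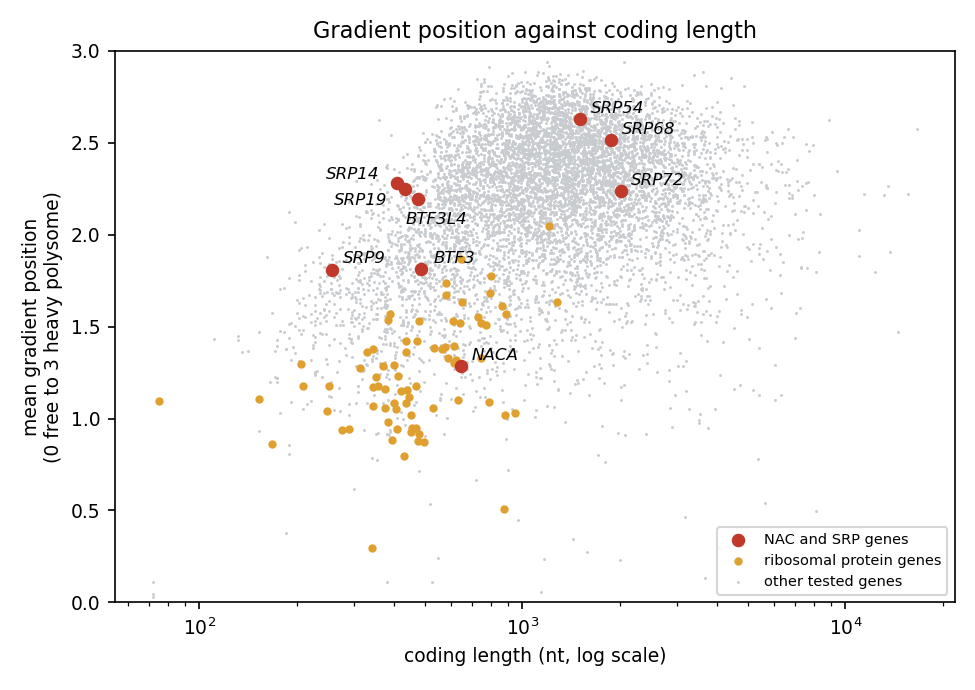
Mean gradient position (y axis, 0 free to 3 heavy polysome) against coding length (x axis, bases, log scale) for the NAC and SRP genes in red, ribosomal protein genes in orange and other tested genes in grey; each point is 1 gene. NACA at 1.28 lies among the ribosomal protein genes, while SRP68 at 2.51 and SRP54 at 2.63 lie near the top.

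For the 7 members with at least 100 counts, which leaves out SRP19 and SRP54, the most alike genes were found by the difference between their percent splits over the 4 libraries, among 4342 genes with at least 100 counts. NACA was nearest to SLC30A5, a zinc transporter, MRPL20, a mitochondrial ribosomal protein, and the phosphatase CDKN3, at 1.67, 2.38 and 3.23 percentage points, and NACA2 was 5.59 points away. BTF3 had no close neighbour: MBIP was nearest at 8.09 points and the tubulin TUBA1A followed at 8.34. SRP9 was nearest to USE1, a SNARE protein, at 1.83 points, BTF3L4 to TMEM9 at 1.34, SRP14 to the DNA-repair enzyme PARP1 at 0.36, SRP68 to the adaptor CRKL at 0.68 and SRP72 to HNRNPU at 2.07. Counting error was not carried into these distances. BTF3L4, SRP14, SRP68 and SRP72 had only 8, 20, 2 and 4 counts in the free library, so which gene is nearest to each is uncertain. Among the members, SRP14 and SRP68 were 9.18 points apart and SRP14 and SRP72 10.1, while the partners SRP9 and SRP14 were 33.7 apart and NACA and BTF3 45.6.

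Other genes of the same steps were set beside the members. Of 17 listed genes that act on the chain at the ribosome, 12 were tested. In heavy polysome against monosome, 3 were called higher and 1 lower, beside 21.0% and 27.0% of all tested genes, with a median of 0.45. METAP1, which removes the first methionine, was highest at 1.74 (0.73 to 3.18), and NACA2 was lowest at -3.65 (-3.78 to -3.51). NACA2 was the 1 gene called lower. How its reads were divided from those of the member NACA is not stated, so it may not be a separate case. The chaperone HSPA8 lay at 0.43 (0.22 to 0.65) and the N-terminal acetyltransferase NAA50 at 0.57 (0.25 to 0.91). Of 11 listed genes for targeting to the endoplasmic reticulum, 10 were tested, 3 of them called higher and 3 lower, beside the same 21.0% and 27.0%, with a median of 0.25. SRPRA, the SRP receptor subunit that pairs with SRP54, was highest at 2.69 (1.64 to 4.26), with 164 counts in the heavy polysome and 6 in the monosome library, and its partner SRPRB lay at 0.55 (0.23 to 0.90). GET1, a receptor for tail-anchored proteins, was lowest at -3.38 (-4.81 to -2.21), from 8 and 22 counts. SGTA and UBL4A, which hand over tail-anchored proteins, lay at 1.98 (1.47 to 2.59) and 0.55 (0.15 to 1.00).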

How the data were processed

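The authors deposited whole-number, unscaled read counts for each gene, in 1 column per library. The tools listed in the submitters' processing notes are minimap2 2.15 and featureCounts (Subread 1.6.2), and the build is hg38. The annotation release, strand and handling of multiply aligned reads are not given there. CPM, ratios, intervals and positions were computed here.

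A minimum of 30 counts over the 4 libraries defined the tested genes. Log2 ratios used 0.5 added to each count, with exact conditional binomial 95% intervals. CPM have Poisson intervals, a count of 0 has a floor of 3 counts, and ratios are relative to the median tested gene. With 1 library per pool, edgeR's quasi-likelihood test could not be fitted. Members and lists were chosen with earlier results of these data known. Named genes were all members, the 3 most counted and the highest and lowest genes of each of 2 pathway lists, and the 3 nearest genes by split over the pools, of which the text gives some.

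Coordinates and coding lengths (principal transcript, no stop codon) are those of GENCODE release 29, also GRCh38, and start sites those of RefSeq. Like transcripts were found with BLAST 2.17.0 (at least 90% identity over 80% of the coding sequence). Alternatives were other minimum counts, a pseudocount of 1 and thinning in 1 random draw. Scaling with edgeR 4.0.16 (TMM), DESeq2 1.42.0 (size factors) or library totals was also tried. Python 3.11.15, scipy 1.17.1, Biopython 1.88 and R 4.3.3 were used.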

Additional observations from a re-analysis of the deposited data

How the results depend on the processing

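No paired analysis was possible because each pool had 1 library. Of 328 values of single members under the alternatives, 53 had the opposite sign, 21 of them among the 72 values on library totals. In 4 of the 53 the member had been called: SRP54 in heavy polysome against monosome, at -0.22 with thinned libraries, and, in heavy polysome against free, BTF3 (0.91) and SRP9 (1.57) with library totals and SRP9 (0.34) with totals without ribosomal protein genes; the totals are not relative to the median gene, which lay at log2 3.05 and 1.82 there. Of 129 values of called members, 15 were under 2-fold or of the opposite sign, 10 of them on library totals; the other 5 were the SRP54 value and SRP9 in heavy polysome against free (no minimum, -0.35; pseudocount 1, -0.95; TMM, -0.99) and against light polysome (minimum of 100, -0.93). In heavy polysome against free, members below the median gene numbered 6, but 3 with a minimum of 10 counts, with no minimum or with TMM, 4 with a pseudocount of 1 or DESeq2, 7 with a minimum of 100 or thinning, 1 with totals and 2 without ribosomal protein genes. Their median of -0.34 was positive with a minimum of 10 (0.09), a pseudocount of 1 (0.10), TMM (0.15), DESeq2 (0.01), no minimum (0.79), totals (2.71) and totals without ribosomal protein genes (1.49), and it was -0.45 with a minimum of 100 or thinning, so its sign rests on these choices. In heavy polysome against monosome, 5 members below became 3 with no minimum and 2 with either kind of totals, and the median was 1.63 with totals and 0.79 without ribosomal protein genes. In monosome against free, 4 below became 2 with either kind of totals, and the median of 0.13 was -0.02 with a pseudocount of 1, -0.18 with thinning, 0.82 with no minimum, 1.39 with totals and 1.01 without ribosomal protein genes. Adding NACA2 reads to NACA, chosen after seeing the data, left those counts as they were except in monosome against free. There 5 members were below the median gene, and NACA lay at -0.27, which was also the members' median, so its sign turned. SRP54 stayed the highest and NACA the lowest member in gradient position under other weights, without the free pool and without ribosomal protein genes in the totals. Depth limits the free library, where SRP19, SRP54, SRP68 and SRP72 had 4 or fewer counts.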
